A study of Mus musculus with 3 samples.

Results

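The miR-34 family is a small group of miRNAs known as direct transcriptional targets of the tumor suppressor p53. Its mature members listed in the libraries are mmu-miR-34a-5p, mmu-miR-34b-5p, mmu-miR-34b-3p, mmu-miR-34c-5p and mmu-miR-34c-3p, which are 5 of the 1138 mature mouse miRNAs with a read count. The members were selected by family name, with their measured read levels at each time point already known, so their levels and fold changes are given here as a description and were not tested. One further product of the same hairpins, miR-34a-3p, is listed as well and is described beside them. The small RNA libraries were made from tibialis anterior (TA) muscle of wild type C57BL/6 mice aged 10 weeks, either uninjured (day 0) or injured with cardiotoxin (CTX) and taken 1 or 3 days later. CTX, from cobra venom, kills myofibers and leaves the stem cells that rebuild them. The groups shared strain, genotype and age. The labels name a saline control for the injections but do not say whether the day 0 muscles received it, and they give the CTX as 30 mL of 10 mM where the study's methods give the same figures in microliters and micromolar. Each of the 3 libraries was a pool of 4 samples, 1 library for each time point, so that there were no replicates and the spread between mice is unknown.

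The family works through the seed, bases 2 to 8 of the mature strand, which pairs with complementary sites in target mRNAs. Targets of the miR-34 seed are known to include mRNAs for cyclins, cyclin-dependent kinases and Bcl2, and members of the family are known to hold back the cell cycle and to favor senescence or apoptosis when p53 is active. miR-34a is made from a gene of its own and is known from many tissues, whereas miR-34b and miR-34c are cut from a shared primary transcript and are best known from testis, brain and ciliated epithelia. In whole muscle, a change in the number of cells that make a miRNA and a change in its amount per cell cannot be told apart.

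The mature sequences show which members can share targets. Sequences from RefSeq on GRCm38.p6 were matched by name to 4 of the 5 members, all but miR-34c-5p, and the seed is in capitals.
miR-34a-5p: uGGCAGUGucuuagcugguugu
miR-34b-5p: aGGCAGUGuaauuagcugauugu
miR-449a-5p: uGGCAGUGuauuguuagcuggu
miR-34b-3p: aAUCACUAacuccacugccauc
miR-34c-3p: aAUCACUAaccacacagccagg
miR-34a-3p: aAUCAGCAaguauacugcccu

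Among the 1679 mature names of the RefSeq table, the seed GGCAGUG was found in 4, namely miR-34a-5p, miR-34b-5p, miR-449a-5p and miR-449c-5p, and 3 of these have a row in the libraries. miR-34c-5p, with no mature entry in the table, was not part of this search or of the distances below. miR-449a-5p is therefore given below as an outside member of the seed family. The seed AUCACUA was found only in miR-34b-3p and miR-34c-3p of these names, and that of miR-34a-3p in no other. Counted from the 5′ end, miR-34c-3p differs from miR-34b-3p by 5 substitutions, U11C, C12A, U16A, U21G and C22G, all outside the seed. miR-34a-5p and miR-34b-5p are 4 edits apart, which is the closest that any of the other 952 listed and matched miRNAs, without miR-34c-5p, comes to either, and miR-34a-5p and miR-449a-5p are 6 edits apart. How reads that match more than 1 miRNA were assigned is not given in the sources used here.

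The hairpins show how the arms are arranged. Mature arms with a RefSeq entry are in capitals, with the 5p arm on the left and the 3p arm on the right.
Mir34a: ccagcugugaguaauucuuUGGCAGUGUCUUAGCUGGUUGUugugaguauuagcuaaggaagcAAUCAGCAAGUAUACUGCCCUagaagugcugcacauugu
Mir34b: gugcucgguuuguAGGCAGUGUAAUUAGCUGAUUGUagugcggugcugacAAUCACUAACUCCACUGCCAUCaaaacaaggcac
Mir34c: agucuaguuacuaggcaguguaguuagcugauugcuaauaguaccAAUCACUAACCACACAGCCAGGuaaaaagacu

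On GRCm38, Mir34a lies at chr4:150068454-150068555 on the plus strand. By GENCODE M21 its last 17 bases overlap an exon of Gm37795, an unclassified transcript on the same strand, and no other annotated gene overlaps it. Mir34c at chr9:51103034-51103110 and Mir34b at chr9:51103562-51103645 lie on the minus strand with 451 bases between them. Both are within an intron of the Btg4-204 transcript of the protein-coding gene Btg4, which runs on the opposite strand. Mir449a, at chr13:113037534-113037624 on the plus strand, lies in an intron of Cdc20b on the same strand.

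The libraries of days 0, 1 and 3 held 8507580, 6421056 and 9795076 reads. Levels are counts scaled to 1000000 reads of the library (CPM), with 95% Wilson intervals that cover counting error only. These intervals treat reads as independent, which PCR copies are not, so they can be too narrow. A count of 3 reads, the smallest taken as detectable, is 0.353, 0.467 and 0.306 CPM in these libraries. Fold changes are ratios of CPM with 95% Wald intervals of the same kind, and they compare libraries, not conditions. Of the members, 4 had at least 10 reads in every library. The exception is miR-34c-5p with 9 reads on day 0, which entered the count of fold changes through the injured libraries.

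Reads of miR-34a-5p, the p53 target of the family that is most widely expressed, numbered 9760 in the uninjured muscle, 33103 after 1 day and 140760 after 3 days. This amounts to 1147 CPM (1125 to 1170), 5155 CPM (5100 to 5211) and 14370 CPM (14296 to 14445), respectively. The level was thus higher in each later library, with intervals far apart. By abundance among all listed miRNAs, miR-34a-5p held rank 47 on day 0, rank 31 a day later and rank 17 on day 3. Against day 0 it was 4.49-fold higher after 1 day (4.39 to 4.60) and 12.5-fold higher after 3 (12.3 to 12.8). From day 1 to day 3 the level was another 2.79-fold higher (2.75 to 2.82).

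The 4 members of the miR-34b/c locus were present at far lower levels, between 1.06 and 6.23 CPM on day 0, between 12.8 and 28.5 CPM on day 1 and between 43.4 and 125.2 CPM on day 3. Each was highest on day 3 and lowest on day 0, and no interval overlapped between libraries.

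miR-34b-3p, the arm of Mir34b with more reads, had 53, 177 and 1226 reads on days 0, 1 and 3. This is 6.23 CPM (4.76 to 8.15), 27.6 CPM (23.8 to 31.9) and 125.2 CPM (118.4 to 132.4), or 4.42-fold (3.26 to 6.01) and 20.1-fold (15.3 to 26.5) the level of day 0 in the later libraries. On day 3 it was the most abundant member of its locus, with no overlap.

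miR-34b-5p, which carries the seed of miR-34a-5p, had 25, 82 and 436 reads on days 0, 1 and 3, or 2.94 CPM (1.99 to 4.34), 12.8 CPM (10.3 to 15.8) and 44.5 CPM (40.5 to 48.9). It was 4.35-fold higher after 1 day (2.78 to 6.80) and 15.1-fold higher after 3 (10.1 to 22.7). The intervals contained the fold changes of miR-34a-5p on both days.

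miR-34c-3p, which shares its seed with miR-34b-3p, had 29, 183 and 881 reads on days 0, 1 and 3, or 3.41 CPM (2.37 to 4.90), 28.5 CPM (24.7 to 32.9) and 89.9 CPM (84.2 to 96.1). The later libraries had 8.36-fold (5.65 to 12.4) and 26.4-fold (18.2 to 38.2) its level of day 0. On day 1 its level could not be told apart from that of miR-34b-3p, whereas on day 3 it was lower.

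miR-34c-5p had the lowest count of the family on day 0, 9 reads or 1.06 CPM (0.557 to 2.01), then 114 reads or 17.8 CPM (14.8 to 21.3) a day later, and finally 425 reads or 43.4 CPM (39.5 to 47.7). Its fold changes against day 0 were the highest of the 5 members, 16.8 (8.51 to 33.1) and 41.0 (21.2 to 79.4), with intervals widened by the few reads on day 0. The log2 difference of miR-34c-3p from miR-34c-5p had an interval that included 0 on day 1 (-1.01, -2.14 to 0.13) and on day 3 (-0.64, -1.73 to 0.46). With a pseudocount of 1 CPM, the log2 fold change of miR-34c-5p on day 3 was 4.43, beside 4.37 for miR-34c-3p.

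Ordered by level, miR-34a-5p stood far above the other members in every library. On day 0 miR-34b-3p, miR-34c-3p, miR-34b-5p and miR-34c-5p followed in this order. miR-34b-3p had 1.83 times the reads of miR-34c-3p (1.17 to 2.86) and miR-34b-5p had 2.78 times those of miR-34c-5p (1.32 to 5.85), while the intervals of miR-34c-3p and miR-34b-5p overlapped widely. On day 1 the order was miR-34c-3p, miR-34b-3p, miR-34c-5p and miR-34b-5p, and both 3p arms lay above both 5p arms. Here the reads of miR-34b-3p were 0.967 times those of miR-34c-3p (0.787 to 1.19), not told apart by counting error, and those of miR-34b-5p were 0.719 times those of miR-34c-5p (0.542 to 0.954), which places miR-34c-5p above. On day 3 miR-34b-3p lay above miR-34c-3p at 1.39 times its reads (1.28 to 1.52), and both lay above the 5p arms, of which miR-34b-5p had 1.03 times the reads of miR-34c-5p (0.898 to 1.17).

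**Figure D1:**
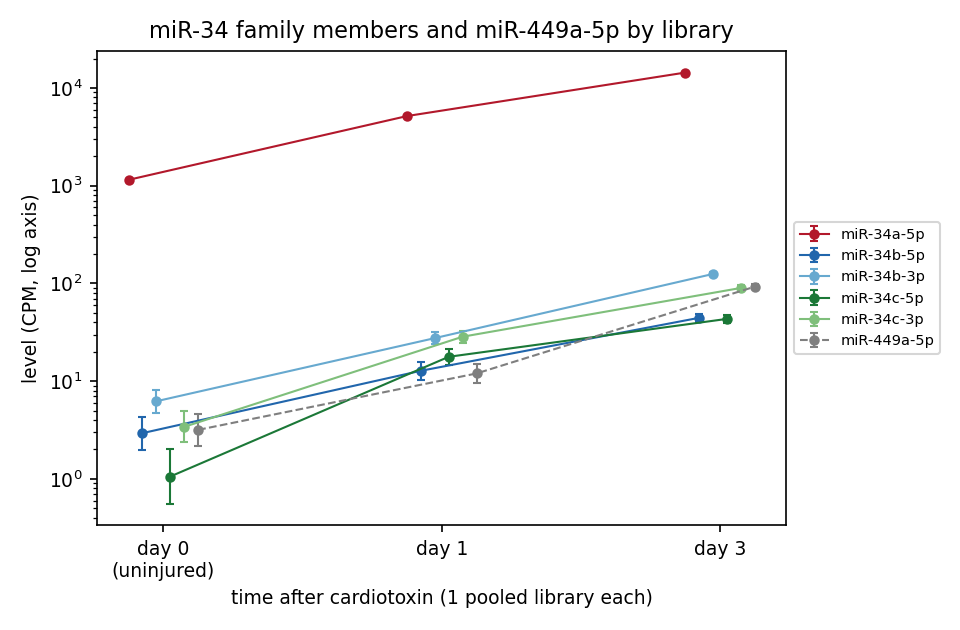
Level in CPM (log axis) of the 5 miR-34 members and of miR-449a-5p in the day 0, day 1 and day 3 libraries, 1 pooled library each. Points are levels and bars are 95% Wilson intervals. All 6 lines run upward, and miR-34a-5p lies above the others in every library, from 1147 CPM on day 0 to 14370 CPM on day 3.

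Between the later libraries, the 4 members of the miR-34b/c locus were again higher on day 3 than on day 1. The fold change was 4.54 for miR-34b-3p (3.88 to 5.32), 3.49 for miR-34b-5p (2.75 to 4.41), 3.16 for miR-34c-3p (2.69 to 3.70) and 2.44 for miR-34c-5p (1.99 to 3.01). Within each hairpin the 3p arm had the higher value, but the interval of the difference between arms included 0 for Mir34b (0.38 on the log2 scale, -0.03 to 0.79) and for Mir34c (0.37, -0.01 to 0.75).

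To place these values, the fold change was computed for every miRNA with at least 10 reads in at least 1 of the compared libraries. All 5 members were at least 2-fold higher on day 1 than on day 0, as were 55.3% of the 532 miRNAs compared, while 12.0% were at least 2-fold lower. On day 3 all 5 were again at least 2-fold higher than on day 0, as were 58.5% of the 569 miRNAs compared, while 10.0% were at least 2-fold lower. A 2-fold higher level against day 0 was thus common across miRNAs. Between day 1 and day 3, all 5 members were at least 2-fold higher on day 3, as were 25.0% of 583 miRNAs, and 17.7% were at least 2-fold lower. Since the values of the members were known when they were chosen, nothing further is read from these counts.

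On the log2 scale, the median fold change of the members was 2.17 on day 1 and 4.33 on day 3, beside 1.28 and 1.47 for all miRNAs compared. From day 1 to day 3 it was 1.66 beside 0.02. In the order of fold changes on day 3 against day 0, from the highest, miR-34c-5p stood at 16 of 569, miR-34c-3p at 36, miR-34b-3p at 51, miR-34b-5p at 71 and miR-34a-5p at 87. On day 1 the members stood further down, with miR-34c-5p at 42 of 532, miR-34c-3p at 98, miR-34a-5p at 166, miR-34b-3p at 167 and miR-34b-5p at 170.

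**Figure D2:**
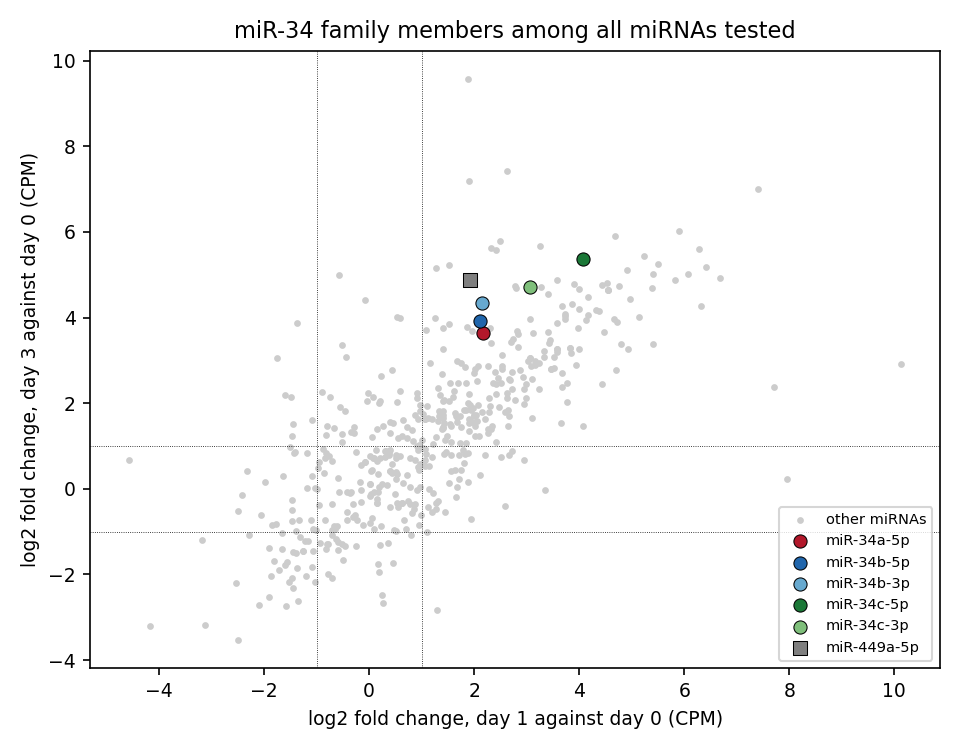
Log2 fold change on day 3 against day 0 (vertical) and on day 1 against day 0 (horizontal) for every miRNA with enough reads in both comparisons; grey points are other miRNAs, colored points the miR-34 members, the square miR-449a-5p, and dotted lines mark 2-fold. The 5 members lie between 2.12 and 4.07 on day 1 and between 3.65 and 5.36 on day 3.

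The size of a fold change against day 0 depends on how the libraries are scaled. The 10 miRNAs with the most reads over the 3 libraries held 73.5% of the reads on day 0, against 59.4% on day 1 and 62.3% on day 3. With edgeR's TMM factors, all log2 fold changes were lower by a constant, -0.94 on day 1 and -0.93 on day 3, and the medians over all miRNAs became 0.33 and 0.55. All 5 members were still at least 2-fold higher on both days when scaled by TMM, by the median of ratios of DESeq2, by totals without those 10 miRNAs, or by the deposited expression values. Of all miRNAs compared, TMM left 187 of 532 at least 2-fold higher and 129 lower on day 1, and 224 of 569 higher and 126 lower on day 3. The median of ratios left 176 higher on day 1 and 200 on day 3, totals without the 10 miRNAs left 227 and 283, and the deposited expression left 219 and, of 566 compared, 296. The comparison of day 3 with day 1 moved little among the scalings of the reads, by 0.02 for TMM, -0.08 for the median of ratios and 0.11 without the 10 miRNAs.

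**Figure D3:**
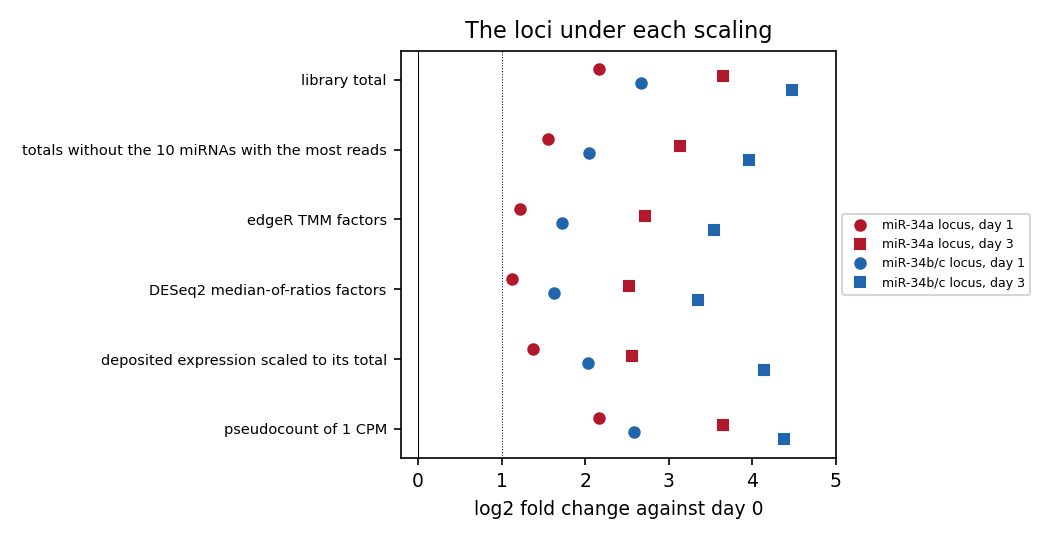
Log2 fold change against day 0 of the miR-34a locus (red) and the miR-34b/c locus (blue) on day 1 (circles) and day 3 (squares) under each scaling; the dotted line marks 2-fold. All values lie to the right of it, between 1.13 and 4.47, and in each row the miR-34b/c locus lies to the right of the miR-34a locus on the same day.

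The next comparison was between the loci, in which library totals cancel because the reads of each are set against each other within a library. Reads of all listed arms were summed, so that the miR-34a locus includes miR-34a-3p. The miR-34a locus held 9761, 33110 and 140775 reads on days 0, 1 and 3, and the miR-34b/c locus held 116, 556 and 2968. For each read of the miR-34b/c locus there were thus 84.1 reads of the miR-34a locus in the uninjured muscle (70.1 to 101.0), 59.6 after 1 day (54.8 to 64.8) and 47.4 after 3 (45.7 to 49.2), with no overlap between libraries. In the deposited expression values these ratios were 78.1, 49.6 and 26.0, in the same order but lower, most of all on day 3. In reads, the miR-34b/c locus held 1.17% (0.980 to 1.41), 1.65% (1.52 to 1.79) and 2.06% (1.99 to 2.14) of the reads of both.

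In CPM, the miR-34a locus had the fold changes of miR-34a-5p, which makes up nearly all of it. The level of the miR-34b/c locus was 6.35-fold that of day 0 after 1 day (5.20 to 7.76) and 22.2-fold after 3 (18.5 to 26.8). The fold change of the miR-34b/c locus exceeded that of the miR-34a locus by 0.50 on the log2 scale after 1 day (0.21 to 0.79), by 0.83 after 3 days (0.56 to 1.10) and by 0.33 from day 1 to day 3 (0.20 to 0.46). These differences are larger than counting error, but with 1 library per time point they could not be set against the spread between mice.

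Restricted to 5p arms, miR-34a-5p had 287.1 reads for each read of miR-34b-5p and miR-34c-5p together in the uninjured muscle (205.3 to 401.3), 168.9 after 1 day (146.8 to 194.3) and 163.5 after 3 (152.9 to 174.8). Here the intervals of days 1 and 3 overlapped. miR-34a-5p made up 99.7%, 99.4% and 99.4% of the reads of these 3 5p arms.

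**Figure D4:**
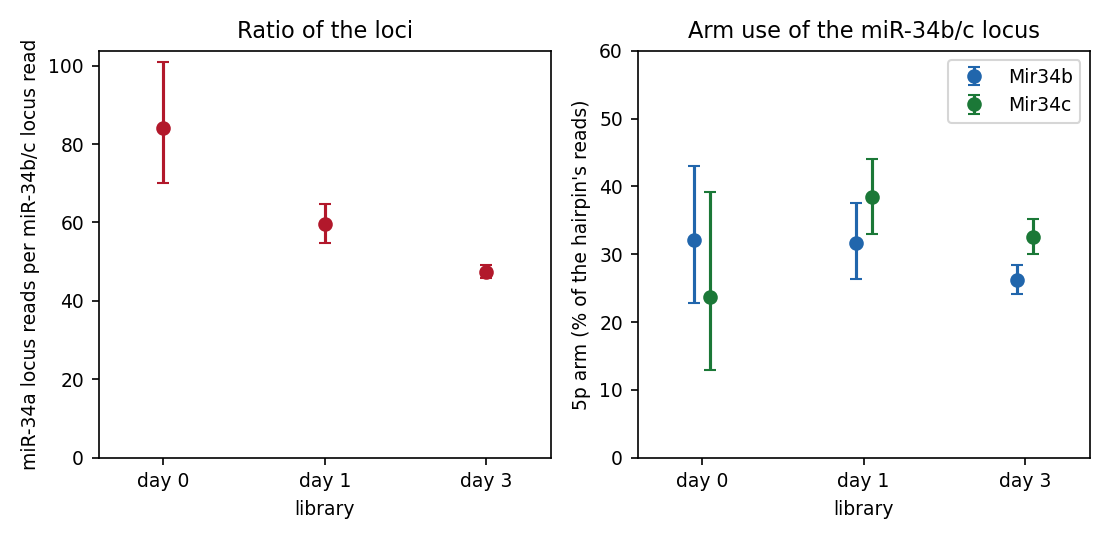
Left, reads of the miR-34a locus per read of the miR-34b/c locus in each library; right, percent of the reads of Mir34b (blue) and Mir34c (green) that come from the 5p arm. Bars are 95% Wilson intervals; the ratio goes from 84.1 on day 0 to 47.4 on day 3, and all shares of the 5p arm are between 23.7% and 38.4%.

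The hairpins differed in which arm was recovered as reads, which need not equal the strand that is kept after the hairpin is cut. For Mir34a nearly every read came from the 5p arm, with 1 read of miR-34a-3p on day 0, 7 on day 1 and 15 on day 3, or 0.010%, 0.021% and 0.011% of the hairpin's reads. For Mir34b and Mir34c the 3p arm was the more abundant in every library. On days 0, 1 and 3 in turn, the 5p arm made up 32.1% (22.7 to 43.0), 31.7% (26.3 to 37.6) and 26.2% (24.2 to 28.4) of the Mir34b reads. For Mir34c it was 23.7% (13.0 to 39.2), 38.4% (33.0 to 44.0) and 32.5% (30.1 to 35.1). Within a hairpin the intervals of the 3 libraries overlapped. On day 3 the 5p share of Mir34c lay above that of Mir34b, with no overlap.

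The balance between the hairpins of the miR-34b/c locus also differed between libraries. Mir34b held 78 of the 116 reads of the locus on day 0, or 67.2% (58.3 to 75.1), 259 of 556 on day 1, or 46.6% (42.5 to 50.7), and 1662 of 2968 on day 3, or 56.0% (54.2 to 57.8). Its share was thus lowest on day 1, with no overlap of that interval with the others. The fold change of Mir34c exceeded that of Mir34b by 1.24 on the log2 scale on day 1 against day 0 (0.63 to 1.84) and was below it by 0.55 on day 3 against day 1 (difference -0.55, -0.81 to -0.28). The same order was seen in both arms, since miR-34b-5p made up 73.5%, 41.8% and 50.6% of the 5p reads of the locus and miR-34b-3p made up 64.6%, 49.2% and 58.2% of the 3p reads on days 0, 1 and 3.

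miR-449a-5p, from another locus but with the same seed as miR-34a-5p and known from multiciliated cells, had 27, 77 and 909 reads on days 0, 1 and 3. This is 3.17 CPM (2.18 to 4.62), 12.0 CPM (9.60 to 15.0) and 92.8 CPM (87.0 to 99.0). It was 3.78-fold higher on day 1 than on day 0 (2.44 to 5.86) and 29.2-fold higher on day 3 (19.9 to 42.9). Between day 1 and day 3 it was 7.74-fold higher (6.13 to 9.77), a log2 fold change that exceeded that of the miR-34a locus by 1.47 (1.14 to 1.81) and that of the miR-34b/c locus by 1.15 (0.78 to 1.51). Against the reads of the miR-34b/c locus it stood at 0.233 reads for 1 in the uninjured muscle (0.154 to 0.353), 0.138 after 1 day (0.109 to 0.176) and 0.306 after 3 (0.284 to 0.330). Even so, miR-34a-5p had far more reads than any other listed carrier of this seed in each library. Of the 5 miR-449 names searched for, only this one has a row in the libraries.

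Other miRNAs known to be transcribed or processed under p53 were set beside the family. Of a list of 11, 10 have a row, namely miR-192-5p, miR-194-5p, miR-215-5p, miR-107-3p, miR-145a-5p, miR-143-3p, miR-200c-3p, miR-141-3p, miR-15a-5p and miR-16-5p. Of these, miR-200c-3p and miR-141-3p are also epithelial markers. On day 1, 8 of 10 were at least 2-fold higher than on day 0 and none was 2-fold lower, beside 55.3% and 12.0% of all miRNAs compared, with a median log2 fold change of 1.70 beside 1.28. The 8 include miR-215-5p, with 0 reads on day 0 and 20 on day 1, and miR-141-3p, with 2 and 47. Both passed the minimum of 10 reads in this comparison only through the day 1 library. With TMM factors the count of 2-fold higher miRNAs on the list was 3 of 10, beside 187 of the 532 miRNAs compared. On day 3, 4 of the 9 with enough reads were at least 2-fold higher than on day 0 and none 2-fold lower, beside 58.5% and 10.0% of all, and the median was 0.16 beside 1.47. The 4 were miR-141-3p and miR-200c-3p, with log2 fold changes of 4.44 and 4.01, the former 21.7-fold (5.28 to 89.2) from only 2 reads on day 0, and miR-15a-5p and miR-16-5p, with 1.09 and 1.08. With TMM factors the former pair remained 2-fold higher, and 4 of the 9 were 2-fold lower, beside 224 and 126 of the 569 miRNAs compared.

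Between day 1 and day 3, 7 of the 10 were at least 2-fold lower on day 3 and none was 2-fold higher, beside 17.7% and 25.0% of all miRNAs compared, with a median log2 fold change of -1.47 beside 0.02. The 7 include miR-215-5p, with 20 reads on day 1 and none in the other libraries, and miR-107-3p, with 16 reads on day 1 and 7 on day 3. Both passed the minimum of 10 reads in this comparison only through the day 1 library. By contrast, the 5 members of the miR-34 family were at least 2-fold higher. These counts were the same under TMM, under the median of ratios and without the 10 most abundant miRNAs, and 5 of the 10 were 2-fold lower in the deposited expression values. The list and the members were compared by these counts and not tested. miR-192-5p, a p53 target, was at 155.9 CPM in the uninjured muscle, 574.0 CPM a day later and 173.6 CPM on day 3. miR-145a-5p, whose processing is known to be promoted by p53, was at 630.3 CPM, 1571 CPM and 513.5 CPM. Both were thus highest on day 1, where miR-34a-5p was intermediate. miR-16-5p, which represses cell cycle genes, stood at 10613 CPM, 37972 CPM and 22424 CPM, so that it too was highest on day 1, and it was above miR-34a-5p in every library.

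The miRNAs most like the family in time course were sought by the distance between pairs of log2 fold changes (day 1 and day 3 against day 0), over 3 libraries and 343 other miRNAs with at least 100 reads in at least 1 library. Nearest to miR-34a-5p were miR-21a-5p, with log2 fold changes of 2.31 and 3.77 and a distance of 0.18, miR-501-3p with 1.96 and 3.69 at 0.21, and miR-34b-5p with 2.12 and 3.92 at 0.28. The distance of miR-34b-5p, with 25 reads on day 0, is within its counting error. The 5p arm of the miR-34b/c locus with the most reads summed over the libraries was miR-34c-5p, by a narrow margin, since miR-34b-5p had more reads on days 0 and 3. Nearest to miR-34c-5p were miR-7a-5p with 3.90 and 4.78 at 0.60, miR-7219-3p with 3, 27 and 102 reads on days 0, 1 and 3 at 0.68, and miR-297a-5p with 4.43 and 4.75 at 0.70. miR-34c-5p had only 9 reads on day 0 and these distances carry that counting error.

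Markers of the cell types in the muscle also differed between the libraries. The label was checked with myofiber miRNAs, and all 5 had reads in each library. Of these, miR-208b-3p was at 4, 1 and 10 reads, on day 1 below the 3 reads taken as detectable, while miR-1a-3p was at 233587, 73841 and 88096 CPM on days 0, 1 and 3. By contrast, miR-133a-3p, at 25869, 12222 and 7340 CPM, and miR-499-5p, at 316.1, 183.6 and 80.2 CPM, were lowest on day 3. Together the 5 made up 27.2%, 9.10% and 27.6% of the reads. The last value was carried by miR-206-3p, an miRNA of regenerating muscle, at 180001 CPM. The 4 leukocyte miRNAs made up 0.488%, 1.87% and 0.646% of the reads, all detected in each library. On day 0 most of that sum was miR-150-5p, at 4733, 8307 and 3197 CPM over the libraries, or 0.675-fold on day 3 against day 0. The other 3, miR-223-3p, miR-142a-3p and miR-142a-5p, were 79.9-fold, 66.9-fold and 41.7-fold higher on day 1 than on day 0 and 19.4-fold, 32.4-fold and 25.9-fold higher on day 3. By library totals all 4 were thus highest on day 1, but the log2 fold change of miR-150-5p on day 1, 0.81, is smaller than the shift of -0.94 that TMM factors bring, so that its direction against day 0 turns with the scaling. By contrast, the miR-34 members together made up 0.116%, 0.524% and 1.47%, highest on day 3. The 7 epithelial miRNAs, a list for epithelia in general and not for ciliated cells alone, summed to 28.9, 247.0 and 153.5 CPM, with none at 0 reads. Of these 7, 6 were at least 2-fold higher on day 1 than on day 0, beside 55.3% of all miRNAs compared. On day 3 it was 5 of 7, beside 58.5%. The median log2 fold changes were 2.95 and 2.47, beside 1.28 and 1.47 for all miRNAs compared. With 2, 6 and 9 reads on day 0, miR-141-3p, miR-205-5p and miR-200a-3p passed the minimum of 10 reads only through the injured libraries. The largest part of the sum was miR-203-3p on day 0, at 18.9, 27.1 and 32.6 CPM over the libraries, and miR-200c-3p in the injured libraries, at 4.47, 158.1 and 72.1 CPM. The part of these differences in the levels of the miR-34 members was not tested.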

How the data were processed

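Small RNAs of 18 to 30 nucleotides were sequenced by the authors on the BGISEQ platform, from 3 libraries of 4 pooled samples each, and aligned to GRCm38.p6. The submitters' processing notes also name HISAT and Bowtie2, without their roles. Per miRNA the authors deposited a read count, not normalized, and an expression value. That column is treated as a score, since its whole numbers never exceed the counts, and how the authors made it is not given in the sources used here. It served as an alternative only.

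Counts were divided by library totals (6421056 to 9795076 reads). With 1 library per time point no replicate model could be fitted, and no test was run. A library at 0 was set to 3 reads in fold changes. The fold threshold of 2 follows the study's methods. The members, lists and rules were chosen with earlier results of these data known. Named beside the members were lists of miR-449, p53-linked and marker miRNAs, and for each locus the 3 miRNAs nearest in time course to its 5p arm with the most reads summed over the libraries. The alternatives were other scalings, the expression values, a pseudocount of 1 CPM and other minimum counts. The fold calculation was tested on simulated data. Sequences came from RefSeq and positions from GENCODE M21, both on GRCm38. Scaling factors came from edgeR 4.0.16 and DESeq2 1.42.0 under R 4.3.3, and the rest was computed in Python 3.11.15 with pandas 2.3.3, numpy 2.4.6 and scipy 1.17.1.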

Additional observations from a re-analysis of the deposited data

How the results depend on the processing

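Each log2 fold change of a member stayed above 1 under all alternatives tried (75 of 75 values), and each locus kept its direction. For the miR-34a locus, the log2 fold change on day 1 was 2.17 by library totals, 1.22 by TMM, 1.13 by median of ratios, 1.55 when the 10 most abundant miRNAs were left out of the totals and 1.37 in the expression values the authors deposited. On day 3 it was 3.65, 2.72, 2.53, 3.14 and 2.56 in the same order. For the miR-34b/c locus these values were 2.67, 1.72, 1.63, 2.05 and 2.03 on day 1, and 4.47, 3.55, 3.35, 3.97 and 4.15 on day 3. A pseudocount of 1 CPM left all 4 within their intervals, but took miR-34c-5p, with 9 reads on day 0, from 5.36 to 4.43 on day 3 and from 4.07 to 3.19 on day 1. The ratio of the loci was 49.6 on day 1 and 26.0 on day 3 in the deposited expression, and with 5p arms only it was 287.1, 168.9 and 163.5 on days 0, 1 and 3.

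The number of miRNAs at least 2-fold higher on day 1 was 294 of 532, against 187 by TMM and 176 by median of ratios. It was 185 of 393 when 10 reads were required in both libraries. The number at least 2-fold lower on day 1 was 64, against 129, 138, 110 and 107 under the 4 other scalings in the order above. When 1 read in either library was enough, it was 187 of 998. On day 3, 333 of 569 were higher, against 200 by median of ratios and 201 of 407 with the stricter minimum. The number lower was 57, against 126 by TMM, 141 by median of ratios and 93 without the 10 most abundant. With the looser minimum, 216 of 1056 were lower. The other 19 values of these results stayed within their intervals or within 1.5 times the main count. No paired analysis was possible because each time point had 1 library, and for the same reason no replicate could be left out. Depth limits miR-34c-5p and miR-34a-3p most, with 9 reads and 1 read on day 0.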

Other observations

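The deposited expression value was well below the read count for the most abundant member and close to it for the others. For miR-34a-5p it came to 92.8%, 82.8% and 54.1% of its reads in the libraries of days 0, 1 and 3. For the 4 members of the miR-34b/c locus it was between 97.5% and 100% of the reads in every library. A value far below the reads was not particular to the family. On day 0 miR-1a-3p had an expression value of 160688 for 1987261 reads, and on day 3 miR-206-3p had 168191 for 1763128. In these values the ratio of the loci was 78.1, 49.6 and 26.0, beside 84.1, 59.6 and 47.4 in the reads. In both columns the ratio was lowest on day 3.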
